A study of Rattus norvegicus with 48 samples.

Results

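Transcript levels of the proteasome genes were followed in liver and brain cortex of rats given RDX, a nitramine explosive. The genes were taken by name: a gene was a member if the platform gave its probe set 1 symbol that began with Psm, a letter between a and g, and a digit, with Psmb9 left aside. This gave 45 of the 14217 genes named on the array, measured by 59 of 31042 probe sets. A probe set is a group of short probes for 1 transcript. Of the 45 genes, 36 had 1 probe set and 9 had more, and the probe set with the highest mean in a tissue stood for its gene there. Between tissues the same probe set was used in both, the one with the highest mean over all 48 arrays. The name rule also took 2 genes that encode no part of the proteasome, Psmc3ip, a cofactor of meiotic recombination, and Psme3ip1, which binds an activator. They are kept in all counts.

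The proteasome is the protease that degrades proteins tagged with ubiquitin. Its barrel-shaped core is made of alpha rings, which form the gate, and beta rings, which hold the cutting sites, and a regulatory cap with ATPase and non-ATPase subunits recognises, unfolds and feeds in the tagged protein. In immune cells and under interferon, the cutting subunits are exchanged for immunoproteasome subunits such as Psmb8 and Psmb10, and the cap can be replaced by the activator of Psme1 and Psme2, which changes the peptides offered on MHC class I. The 45 genes held 7 of the alpha ring, 6 of the beta ring, 2 of the immunoproteasome, 6 ATPases, 11 non-ATPase cap subunits, 7 assembly chaperones, 4 activators or inhibitors and the 2 that are no subunit.

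Male Sprague-Dawley rats received a single oral dose of RDX, 18 or 3 mg/kg, in a gel capsule, at doses chosen so as to cause no seizure. Liver and cortex were taken at 0, 4, 24 and 48 h, and total RNA was hybridised to Affymetrix whole-genome rat arrays. The 16 groups were thus liver at 18 mg/kg, liver at 3 mg/kg, cortex at 18 mg/kg and cortex at 3 mg/kg, each at 4 times and each with 3 arrays, 48 in all. Every group carries a dose of RDX in its label, 0 h included, and the labels give no vehicle arm, no age and no clock time of sampling, so 0 h in the same arm and tissue served as baseline. Nothing in the labels says that the 3 arrays of a group stand for separate animals. What the p-values measure is thus no more than the variation among arrays, which may be technical. Nor do the labels say whether liver and cortex arrays of one number share an animal, and they were treated as independent.

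Values are log2 signals as deposited, so a difference of 1 is a doubling. Their number of arrays limits the precision, and levels of different probe sets are not set against each other. The tissue labels held in their marker genes: all 7 neuron markers were lower in liver and all 7 hepatocyte markers were higher there. In cortex, the mean of the hepatocyte markers lay between 9.91 and 10.99 on 4 arrays and at or below 7.86 on the other 20. A group was called different at an adjusted p under 0.05 in limma, with Benjamini-Hochberg adjustment over all 31042 probe sets. Since the tissue was whole, fewer cells of a type and less RNA per cell cannot be told apart.

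In liver, most of the lowest proteasome values came from 2 arrays with a narrow range of signal, called compressed below. The SD of all log2 values was 1.39 on the first array of 18 mg/kg at 4 h and 1.50 on the second array of 3 mg/kg at 0 h, against 1.83 to 2.09 on the other 22 liver arrays. The mean over the 45 genes was 8.16 and 9.07 on these arrays. It was between 9.83 and 10.50 on the other liver arrays and between 9.73 and 10.07 in cortex. On the 18 mg/kg array, 33 of 45 genes lay below every other liver array, as 16% of all probe sets did. On the 3 mg/kg array 9 of 45 did so, as 14.6% of all probe sets did. These shares are over dim and bright probe sets alike, and none is given for probe sets as bright as the proteasome genes. The hepatocyte markers, which are bright in liver, also had their lowest liver mean on the 18 mg/kg array. The neuron markers, which are dim in liver, did not. Whether the low values are particular to the proteasome genes was thus not tested. The same limit applies below wherever these arrays enter a comparison with all probe sets.

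**Figure D1:**
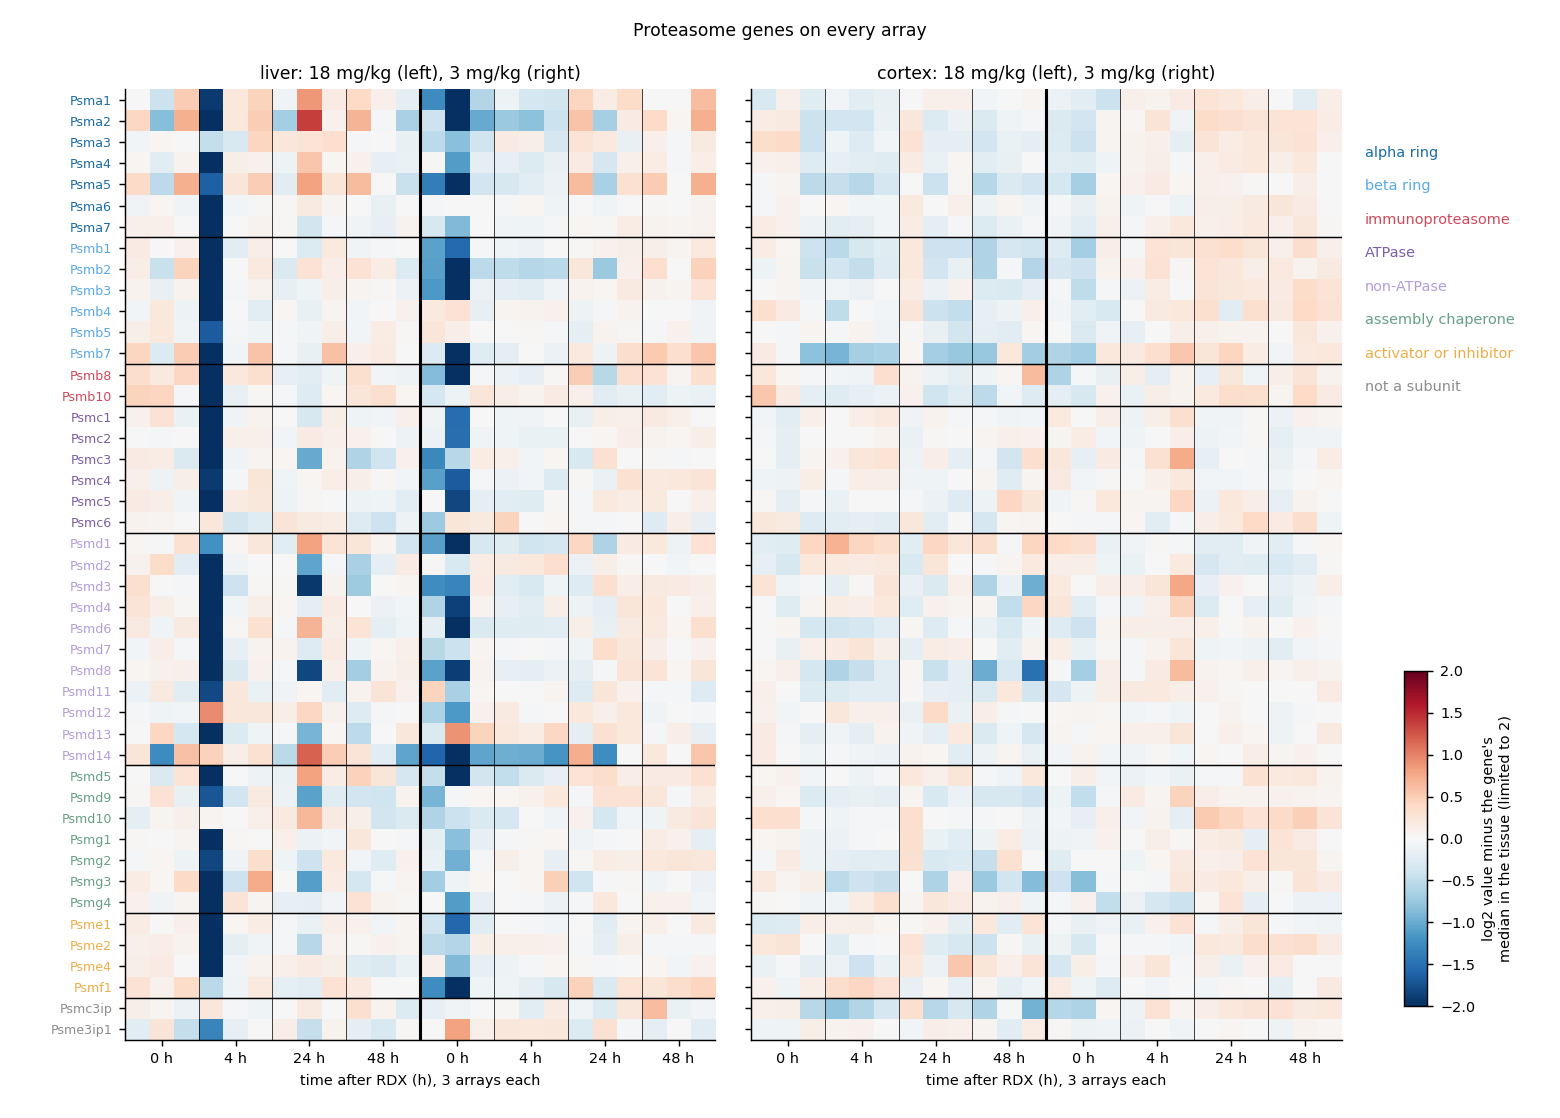
Log2 value of each of the 45 genes (rows, by role) on each of the 48 arrays (columns), minus the median of the gene in that tissue, with colours limited to 2. The 2 compressed liver arrays show as blue columns at 4 h after 18 mg/kg and at 0 h of 3 mg/kg, and cortex arrays of 18 mg/kg at 4 and 48 h are on average bluer in the beta ring.

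The largest tissue differences among the 45 genes were those of Psmb8, an immunoproteasome subunit, and of the activators, all higher in liver. Of the 45 genes, 32 were called between the tissues, 21 higher and 11 lower in liver. Of all probe sets 89.0% were called, 54.5% higher and 34.5% lower. The share of these genes called was thus below that of the array as a whole. The median difference of the 45 genes was 0.18 (liver minus cortex), against 0.26 over all probe sets. Without the 2 compressed arrays, 42 genes were called, against 90.3% of all probe sets, and the median was 0.32. The actin gap, a measure of RNA degradation defined further below, varied between groups. Its group means lay between 2.09 and 3.98 in cortex. In liver they lay between 3.01 and 3.85, apart from 2.24 in the group with the compressed 18 mg/kg array. With the gap as a covariate and without the compressed arrays, 42 genes were again called, against 87.5% of all probe sets.

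Psmb8, the immunoproteasome subunit that takes the place of Psmb5, averaged 10.33 ± 0.98 in liver and 6.69 ± 0.23 in cortex (SD, n = 24 each). The liver arrays had a lowest value of 6.95, a median of 10.55 and a highest of 11.05, against 6.06, 6.68 and 7.30 in cortex. Apart from the 2 compressed arrays, at 6.95 and 7.74, no liver array was under 9.69, so the tissues did not overlap outside those 2. The difference was 3.63 ± 0.19 (SE), a 12.4-fold higher signal in liver (adjusted p = 2.8e-20). Psmb10, which takes the place of Psmb7 in the immunoproteasome, was 0.68 ± 0.12 higher in liver (adjusted p = 4.7e-06), with means of 9.51 ± 0.63 in liver and 8.84 ± 0.27 in cortex.

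All 4 genes of the alternative caps and inhibitors were higher in liver. Psme1, a subunit of the interferon-induced activator, had a lowest value of 8.53, a median of 11.97 and a highest of 12.15 in liver, against 9.21, 9.48 and 9.76 in cortex. The lowest liver value was the compressed array of 18 mg/kg, and the lowest outside both compressed arrays was 11.56, above every cortex array. The difference was 2.27 ± 0.15 (adjusted p = 6.8e-17), and that of its other probe set was 0.50. Its partner Psme2 differed by 2.06 ± 0.13 (adjusted p = 9.5e-18), with liver between 7.99 and 11.26 and cortex between 8.43 and 9.21. Psme4, an activator found in the nucleus, averaged 10.59 ± 0.63 in liver and 8.19 ± 0.26 in cortex, a difference of 2.40 ± 0.13 (adjusted p = 7.6e-20). Psme4 had 3 probe sets, all higher in liver, by 0.59 to 2.40. Psmf1, which inhibits the core in vitro, differed by 0.84 ± 0.099 (adjusted p = 6.0e-10).

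Markers of immune cells differed in the same direction. The 16 measured genes of a list for interferon response and antigen presentation were all called higher in liver, as 54.5% of all probe sets were. The mean of the list lay between 7.66 and 9.24 on liver arrays and between 6.47 and 6.79 on cortex arrays. All 7 measured leukocyte markers had a higher mean in liver (list means 6.71 to 7.40 in liver and 5.81 to 6.52 in cortex), as did 6 of 7 macrophage and microglia markers (7.88 to 9.52 in liver and 7.12 to 7.55 in cortex). The widest difference among these 7 was that of Cd163, a receptor of resident macrophages, with 9.32 ± 0.37 in liver and 4.68 ± 0.26 in cortex. Csf1r averaged 9.33 in liver and 8.94 in cortex. Cx3cr1, the 1 that went the other way, averaged 5.66 and 5.79. The leukocyte marker Lyz2 averaged 10.52 and 10.37. The part of immune cells in the difference of Psmb8, Psmb10 and the activators was not tested.

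Promoter sequence is shown for 4 of these genes, since immunoproteasome and activator genes are known to respond to interferon through an element that the array data themselves do not show. The windows run from 180 bases before to 20 after the start of the gene in RefSeq (GRCr8), read along the gene's strand, and capitals mark matches to the interferon-stimulated response element, searched on both strands as 2 copies of GAAA with any 2 bases between them. They lie at chr20:4657012-4657211 (minus strand) for Psmb8, chr19:50743273-50743472 (minus) for Psmb10, chr15:33052732-33052931 (minus) for Psme2 and chr15:33038791-33038990 (plus) for Psme1.
Psmb8: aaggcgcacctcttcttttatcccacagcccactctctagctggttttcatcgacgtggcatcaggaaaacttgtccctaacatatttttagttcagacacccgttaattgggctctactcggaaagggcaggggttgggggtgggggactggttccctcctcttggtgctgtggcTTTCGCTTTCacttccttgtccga
Psmb10: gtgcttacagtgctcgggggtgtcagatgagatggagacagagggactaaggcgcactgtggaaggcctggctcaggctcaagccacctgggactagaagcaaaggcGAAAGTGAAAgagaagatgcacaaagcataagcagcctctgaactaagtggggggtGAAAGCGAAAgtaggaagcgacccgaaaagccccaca
Psme2: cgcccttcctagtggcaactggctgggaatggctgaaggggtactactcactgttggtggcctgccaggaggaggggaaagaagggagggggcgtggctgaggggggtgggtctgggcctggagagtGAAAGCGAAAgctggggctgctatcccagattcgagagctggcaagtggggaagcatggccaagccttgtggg
Psme1: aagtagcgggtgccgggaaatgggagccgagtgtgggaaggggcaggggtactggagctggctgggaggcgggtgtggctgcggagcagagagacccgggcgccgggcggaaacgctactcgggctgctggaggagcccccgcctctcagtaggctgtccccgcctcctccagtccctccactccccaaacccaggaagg
Psmb10 held 2 matches, Psmb8 and Psme2 held 1 each, and Psme1 held none in this window. In Psmb8 the match is on the other strand and spans the start. Over the whole window of the table, 300 bases, 7 of the 41 members with a promoter in RefSeq held a match (17.1%), against 3.92% of all 33469 promoters. The other 4 were Psma4, Psmb3, Psmd7 and Psmg4. The gamma-activated site TTCNNNGAA was in 4 of 41 (9.76%, against 8.87% of all), the antioxidant response core TGACNNNGC in 7 (17.1%, against 12.1%) and the CCAAT box in 21 (51.2%, against 37.5%). A match describes these letters and is not a site of binding.

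The constitutive core was split between the tissues. In the alpha ring, 2 genes were called higher in liver and 3 lower, and in the beta ring 1 higher and 2 lower. Without the compressed arrays this became 3 higher and 3 lower in the alpha ring, with Psma7 added, and 4 higher and 2 lower in the beta ring, with Psmb1, Psmb3 and Psmb5 added. Psma2 was lower by 1.0 ± 0.17 (adjusted p = 2.0e-06), Psma3 by 0.91 ± 0.068 (adjusted p = 2.2e-15) and Psma5 by 0.72 ± 0.17. Every liver array of Psma3 lay below every cortex array, with a highest value of 9.01 in liver and a lowest of 9.03 in cortex. A probe set that carries Psma3 and Psma3l together went the other way, with means of 10.76 in liver and 10.50 in cortex. Psma3 and Psmc5, below, were the 2 genes with no overlap in this direction, which 16.6% of all probe sets showed. In the beta ring, Psmb7, the trypsin-like cutting subunit, averaged 10.06 ± 0.76 in liver and 11.04 ± 0.48 in cortex, a difference of -0.98 ± 0.16 (adjusted p = 4.9e-07). Psmb5, the chymotrypsin-like subunit that Psmb8 replaces, averaged 11.99 ± 0.36 in liver and 11.85 ± 0.14 in cortex, and its difference of 0.14, with a 95% interval of -0.02 to 0.29, was not called with all arrays. It was called without the compressed arrays, at 0.20 (adjusted p = 2.2e-05).

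In the cap, 3 of 6 ATPases were called higher and 1 lower in liver, and 5 of 11 non-ATPase subunits were called higher and 2 lower. Psmc5, an ATPase, was lower by 0.73 ± 0.15, and its highest liver array, 10.98, lay just under its lowest cortex array, 11.00. Psmd14, the subunit that cuts ubiquitin off the substrate, had the lowest difference of the 45 genes at -1.35 ± 0.16 (adjusted p = 6.2e-10), with 5.69, 9.53 and 10.70 as lowest, median and highest value in liver, against 10.31, 10.52 and 10.68 in cortex. Its 3 probe sets disagreed: the others gave -2.26 and 0.03. Psmd6, a structural subunit of the lid, was lower by 1.06 ± 0.16 (adjusted p = 1.3e-07). Psmc6 was 0.82 ± 0.062 higher in liver, and its 3 probe sets ranged between 0.22 and 0.82. Without the compressed arrays 4 ATPases were called higher and 1 lower, and 9 non-ATPase subunits higher and 2 lower.

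Among the assembly chaperones, 4 of 7 were called higher and 2 lower in liver, and 5 higher without the compressed arrays. Psmd9, a chaperone of the ATPase ring, averaged 9.34 ± 0.48 in liver and 7.54 ± 0.22 in cortex, a difference of 1.80 ± 0.095 (adjusted p = 4.7e-20). Its other probe set differed by 0.52. Psmg1, which helps build the alpha ring, was 0.99 ± 0.13 higher in liver (adjusted p = 7.4e-09). Psmd10, known as gankyrin and likewise a chaperone of the ATPase ring, was lower by 0.83 ± 0.054 (adjusted p = 4.5e-17), with means of 9.07 ± 0.28 in liver and 9.89 ± 0.22 in cortex. Leaving out the compressed arrays, 8 genes had every liver array above every cortex array (Psma4, Psmb8, Psmd9, Psme1, Psme2, Psme4, Psmg1 and Psmg4), as 18.7% of all probe sets had.

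**Figure D2:**
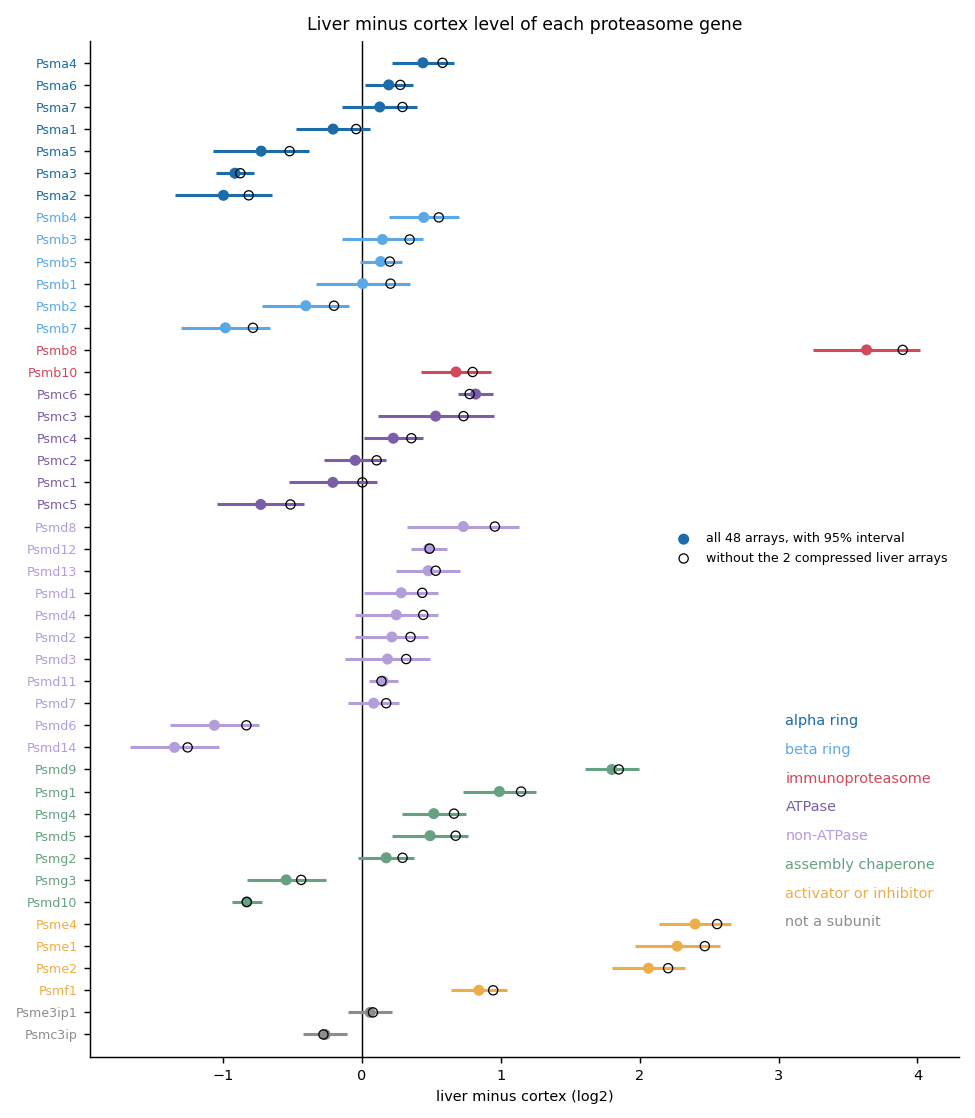
Difference of each gene between liver and cortex (log2, liver minus cortex), coloured by role and sorted within it. Filled points with 95% intervals use all 48 arrays and open points leave out the 2 compressed liver arrays; Psmb8 at 3.63 and Psme4, Psme1 and Psme2 at 2.06 to 2.40 stand farthest to the right, and Psmd14 at -1.35 farthest to the left.

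Against their own 0 h groups, proteasome genes were called in 1 of 12 time contrasts, liver at 48 h after 3 mg/kg. Of the 45 genes 6 rose there and none fell, where 9.34% of all probe sets were called, 6.0% higher and 3.33% lower. An unadjusted p under 0.05 was reached by 16 of 45, against 32% of all. The 6 were Psmf1, Psmd14, Psma5, Psma1, Psmd1 and Psmb2. They include 2 alpha subunits, 1 beta subunit and 2 non-ATPase subunits of the cap beside the inhibitor. The median change of the 45 genes was 0.60, against -0.16 over all probe sets. Contrasts of 1 dose arm share their 0 h arrays.

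Psmf1 had 10.30, 10.42 and 10.49 at 48 h after 3 mg/kg, against 8.81, 7.54 and 9.97 at 0 h. The groups did not overlap, and the low value of 7.54 was the compressed array. Of the 45 genes, 22 lay higher and 1 lower at 48 h without overlap. The share of all probe sets without overlap is not given for this contrast, so whether these counts are unusual was not tested. The change of Psmf1 was 1.63 ± 0.37 (adjusted p = 0.025), a 3.09-fold rise. Psmd14 had 9.74, 9.53 and 10.08 at 48 h, against 7.94, 5.69 and 8.48 at 0 h. Its change of 2.42 ± 0.59 (adjusted p = 0.026) was the highest of the 45 genes, and its other probe sets changed by 1.37 and 2.24, neither called. Psme4 was not called by its brightest probe set (0.33 ± 0.46), while another of its probe sets changed by 1.81 ± 0.54 (adjusted p = 0.042).

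Psma5, of the alpha ring, had 10.83, 10.31 and 11.03 at 48 h, against 8.95, 6.53 and 9.95 at 0 h, a change of 2.25 ± 0.62 (adjusted p = 0.034). Psma1, likewise of the alpha ring, had 10.03, 10.03 and 10.65 at 48 h, against 8.78, 7.36 and 9.45 at 0 h, a change of 1.71 ± 0.49 (adjusted p = 0.037). In both genes the groups did not overlap, and 1 of the 0 h arrays was within 1 unit of the lowest 48 h array. Psmd1, a scaffold of the cap, had 10.16, 9.85 and 10.24 at 48 h, against 8.86, 6.97 and 9.63 at 0 h, a change of 1.60 ± 0.47 (adjusted p = 0.039). Psmb2, a beta subunit without a cutting site, had 10.98, 10.65 and 11.10 at 48 h, against 9.55, 7.45 and 10.11 at 0 h, a change of 1.88 ± 0.56 (adjusted p = 0.041). In each of the 6 genes the third 0 h array was the highest of its group and the compressed array the lowest.

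**Figure D3:**
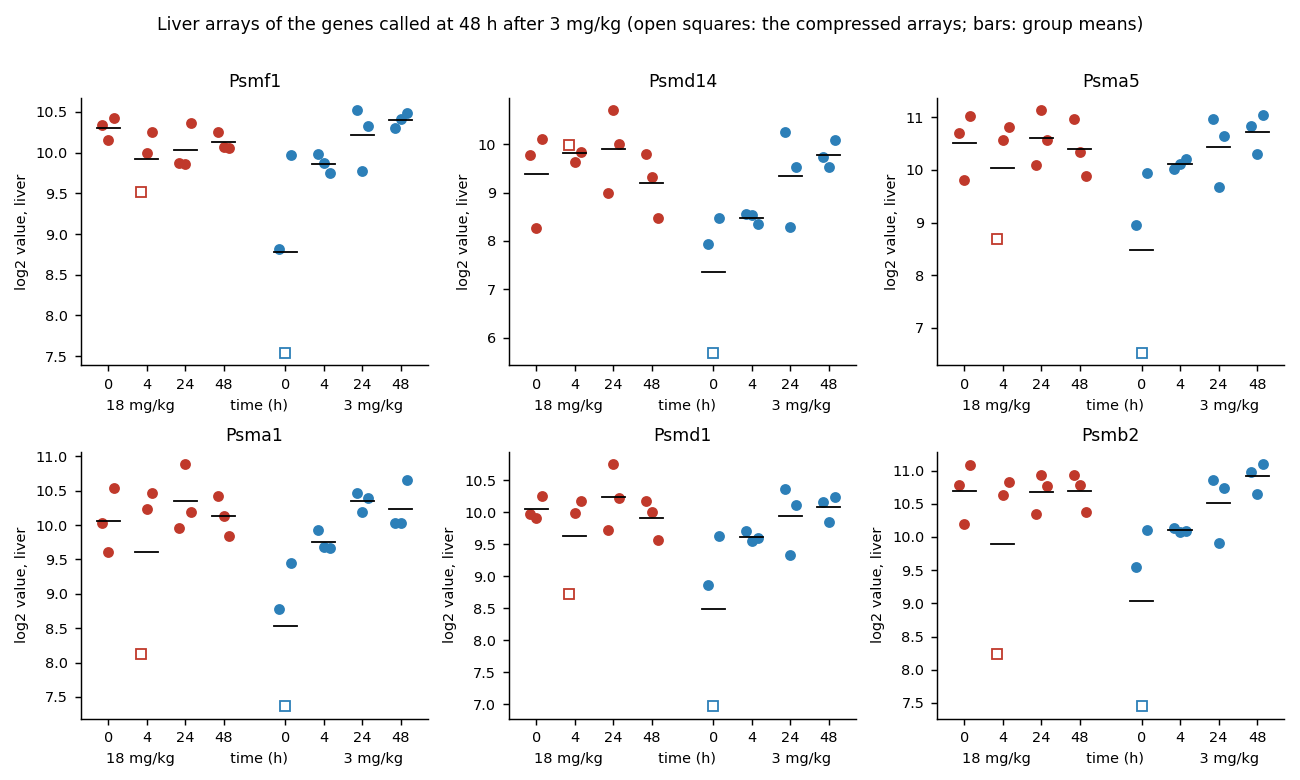
Log2 values in liver of the 6 genes called at 48 h after 3 mg/kg, by dose and time (h), with points for arrays, open squares for the 2 compressed arrays and bars for group means. At 0 h of 3 mg/kg all 3 arrays of each gene lie below the 48 h arrays, and the 0 h arrays of 18 mg/kg lie higher than those of 3 mg/kg on average.

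The call rested on few arrays. Without both compressed arrays 5 genes were called, against 4.42% of all probe sets: Psmf1 at 1.01 (adjusted p = 0.040), Psma1 at 1.12 (0.041), Psmb2 at 1.08 (0.043), Psmb3 at 0.77 (0.045) and Psmc4 at 0.78 (0.047), of which 3 were among the first 6. The other 3 lost their call, with changes of 1.58 for Psmd14 (adjusted p = 0.083), 1.28 for Psma5 (0.070) and 0.84 for Psmd1 (0.095). Psmd1 also lost it under quantile normalization (adjusted p = 0.056). The median of the 45 genes was then 0.32. When only the second 0 h array was left out, no gene was called, as 0.00% of all probe sets were. Leaving out any single 48 h array also left none, when 0.00% to 0.477% of all probe sets were called. Without the first 0 h array 3 were called and without the third 15, when 4.68% and 25.0% of all probe sets were. With the 0 h arrays of both doses pooled none was called, as 0.00% of all probe sets were. In the 18 mg/kg arm at 0 h, Psmf1 had 10.35, 10.15 and 10.43, where the 48 h arrays of 3 mg/kg lay between 10.30 and 10.49. Psma1 had 10.03, 9.60 and 10.54 there, where they lay between 10.03 and 10.65.

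RNA integrity differed between the 2 groups on average, and the gaps of the 2 compressed arrays were unlike. The actin gap, the log2 signal of the 3' end of the actin transcript minus that of the 5' end, which grows as RNA degrades, was 3.15 ± 0.28 at 48 h and 3.85 ± 0.55 at 0 h in the 3 mg/kg livers (SD, n = 3 each). The 0 h arrays had gaps of 4.38, 3.29 and 3.88, and means over the proteasome genes of 9.83, 9.07 and 10.24. The compressed array, the second, thus had the lowest mean and the smallest gap of its group. That gap of 3.29 lay within the range of most liver group means, 3.01 to 3.85. Of the other 0 h arrays, the one with the larger gap had the lower mean. The compressed array of 18 mg/kg at 4 h had a gap of 0.62 and a mean of 8.16. With the gap as a covariate 32 genes were called with all liver arrays, when 46.5% of all probe sets were, and none without the compressed ones, when 0.00% were. Its part in the result was not tested beyond these fits.

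In the same arm no gene was called at 4 or 24 h, when 0.0226% and 0.00% of all probe sets were. Unadjusted, 6 and 12 of 45 were under 0.05, against 14.2% and 20%. The number of genes above 0 was 40 of 45 at 4 h, 39 at 24 h and 38 at 48 h, against 43.0%, 42.0% and 39.5% of all probe sets. Median changes were 0.48, 0.57 and 0.60 in that order, and 0.19, 0.27 and 0.32 without the compressed arrays. By role, the beta ring had the highest median at 48 h (1.18, with 4 of 6 above 0), followed by the non-ATPase cap subunits (0.91, with 9 of 11) and the alpha ring (0.67, with 7 of 7). Psma5 had the widest change at 4 h (1.64 ± 0.62, adjusted p = 0.30) and Psmd14 at 24 h (1.98 ± 0.59, adjusted p = 0.10). Psmb5 did not follow them: it had 12.27, 12.17 and 12.04 at 0 h, 12.03, 12.07 and 12.01 at 4 h, 11.85, 12.11 and 12.06 at 24 h, and 11.99, 12.12 and 11.97 at 48 h. Its change at 48 h was -0.14, with a 95% interval of -0.71 to 0.43. Psma6 likewise lay between 11.91 and 12.06 in all 12 liver arrays of the arm.

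After 18 mg/kg no proteasome gene was called in liver at 4, 24 or 48 h, when 0.0258%, 0.00% and 0.0966% of all probe sets were. At an unadjusted p under 0.05 the counts were 18, 0 and 0, against 11.4%, 2.43% and 1.67% of all. At 4 h the median change was -0.79, and 4 of 45 genes were above 0, against 58.1% of all probe sets. The compressed array carried this: without it the median was -0.01 and 22 genes were above 0. Psmc3, an ATPase, showed it at its widest, with 6.20, 10.98 and 11.10 at 4 h, against 11.21, 11.19 and 10.76 at 0 h (-1.63 ± 0.75, adjusted p = 0.44). Without the compressed array its change was -0.01. Psmb8 had 6.95, 10.77 and 10.88 at 4 h, against 10.90, 10.74 and 10.98 at 0 h. Psmd12, a non-ATPase subunit, was high on that array, with 11.03, 10.32 and 10.31 at 4 h, against 10.05, 10.01 and 10.04 at 0 h. At 24 and 48 h the medians were -0.04 and -0.09, and the widest changes were those of Psmd3 (-0.71 ± 0.53) and Psme4 (-0.32 ± 0.46), both with an adjusted p of 1.0.

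**Figure D4:**
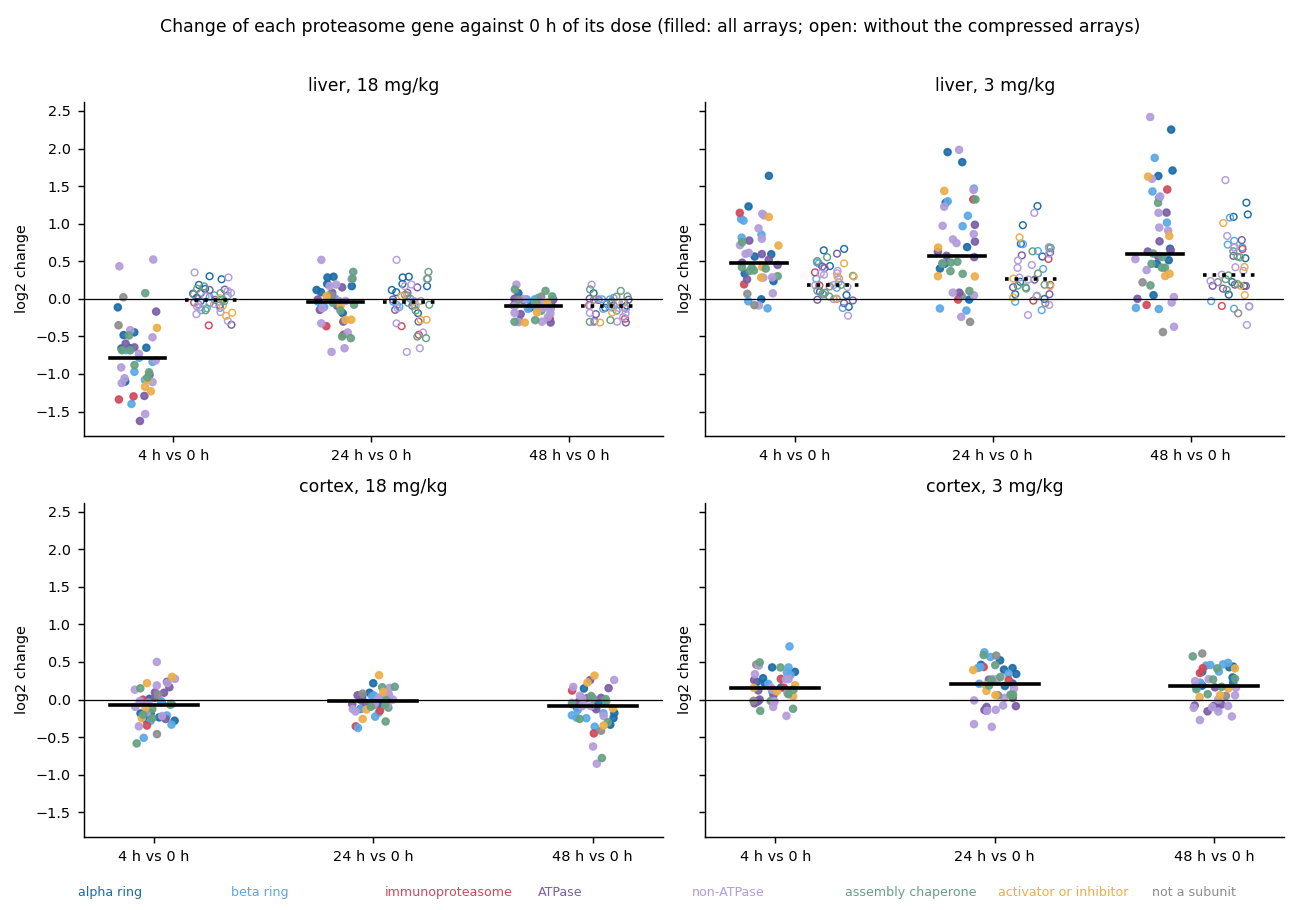
Log2 change of each of the 45 genes against 0 h of the same dose and tissue, coloured by role, with bars at the median. In liver, filled points use all arrays and open points leave out the 2 compressed ones; the medians of -0.79 at 4 h after 18 mg/kg and 0.60 at 48 h after 3 mg/kg shrink to -0.01 and 0.32, and cortex changes lie within 1 unit of 0.

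In cortex no proteasome gene was called against 0 h at either dose, where 0.00% to 0.0741% of all probe sets were called. At an unadjusted p under 0.05, the counts after 3 mg/kg were 9 of 45 genes at 4 h, 18 at 24 h and 19 at 48 h, against 12.6%, 14.4% and 13.0% of all probe sets. After 18 mg/kg they were 5, 3 and 9, against 11.0%, 5.99% and 16.6%. The lowest adjusted p among them was that of Psma1 at 24 h after 3 mg/kg (0.46 higher, adjusted p = 0.092).

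At 24 h after 3 mg/kg all 7 alpha and all 6 beta subunits were above 0, with medians of 0.40 and 0.43 (47.3% of all probe sets were above 0), while 2 of 6 ATPases were above 0, with a median of -0.09. At 48 h the same 13 core subunits were above 0, with medians of 0.29 and 0.46, and 1 of 6 ATPases was (46.6% of all probe sets). After 18 mg/kg the beta ring lay below 0 in 6 of 6 genes at 4 and at 48 h, with medians of -0.25 and -0.23, when 48.9% and 48.1% of all probe sets were above 0. Psmb7 had the widest change at 4 and 24 h after 3 mg/kg, with 10.62, 10.55 and 11.44 at 0 h, 11.41, 11.57 and 11.76 at 4 h, 11.47, 11.66 and 11.37 at 24 h, and 11.17, 11.42 and 11.43 at 48 h. The high 0 h array had an actin gap of 1.88, and the other 0 h arrays had gaps of 3.18 and 3.60. The changes were 0.71 ± 0.28 at 4 h (adjusted p = 0.36) and 0.63 ± 0.28 at 24 h (adjusted p = 0.32). Psmd8, a lid subunit, had the widest change at 48 h after 18 mg/kg, with 8.42, 9.10 and 7.92, against 9.45, 9.51 and 9.05 at 0 h (-0.85 ± 0.24, adjusted p = 0.12).

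RNA integrity moved with these changes. The mean actin gap after 3 mg/kg was 2.89 at 0 h, 2.09 at 4 h, 2.09 at 24 h and 2.34 at 48 h. After 18 mg/kg it was 2.65 at 0 h, 3.66 at 4 h, 3.30 at 24 h and 3.98 at 48 h. On the 10 cortex arrays with a gap over 3, all 7 alpha and all 6 beta subunits had a lower median than on the other 14, and 4 of 6 ATPases a higher one. The median difference was -0.31 for the alpha ring, -0.41 for the beta ring and 0.10 for the ATPases. The part of integrity in the changes against 0 h was not tested beyond these values.

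Between the doses, 2 genes were lower in cortex at 18 mg/kg at 4 h and 3 at 48 h, and none was called at 0 or 24 h. At 4 h 3.70% of all probe sets were called, 2.38% lower, and at 48 h 1.32% were called, 0.970% lower. At an unadjusted p under 0.05, 3, 18, 7 and 20 genes passed at 0, 4, 24 and 48 h, against 4.35%, 26.7%, 12.4% and 23.5% of all probe sets. Psmb7 had 10.30, 10.57 and 10.60 at 4 h after 18 mg/kg, against 11.41, 11.57 and 11.76 after 3 mg/kg, a difference of -1.09 ± 0.28 (adjusted p = 0.046). Psmd6 had 11.10, 11.16 and 11.28 after 18 mg/kg, against 11.63, 11.62 and 11.63 after 3 mg/kg, a difference of -0.45 ± 0.11 (adjusted p = 0.046). Neither gene overlapped between the doses. Of all 45 genes, called or not, 19 lay lower and 4 higher after 18 mg/kg without overlap at 4 h. The share of all probe sets without overlap is not given here, so these counts have no yardstick beyond the unadjusted 26.7%.

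At 48 h Psmb3, a beta subunit without a cutting site, had 10.64, 10.62 and 10.73 after 18 mg/kg, against 11.07, 11.27 and 11.19 after 3 mg/kg (-0.51 ± 0.11, adjusted p = 0.045). Psmg3, a chaperone of the alpha ring, had 8.53, 8.89 and 8.41 after 18 mg/kg, against 9.29, 9.53 and 9.44 after 3 mg/kg (-0.81 ± 0.18, adjusted p = 0.045). Psmd8 had 8.42, 9.10 and 7.92 after 18 mg/kg, against 9.47, 9.51 and 9.47 after 3 mg/kg (-1.0 ± 0.24, adjusted p = 0.048). All 3 separated the doses at 48 h, where 16 of the 45 genes lay lower and 1 higher without overlap. Here too the share of all probe sets without overlap is not given, and 23.5% had an unadjusted p under 0.05. Psmd8 was the most scattered of the 3 within 18 mg/kg. Over the 45 genes the median difference was -0.14 at 4 h and -0.21 at 48 h, with 15 and 12 genes above 0, against 54.1% and 49.7% of all probe sets.

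RNA integrity and hepatocyte transcripts differed between the same groups. The actin gap was 3.66 ± 0.35 at 4 h and 3.98 ± 0.90 at 48 h after 18 mg/kg, against 2.09 ± 0.38 and 2.34 ± 0.34 after 3 mg/kg (SD, n = 3 each). The mean of the 7 hepatocyte markers was 5.31, 9.91 and 5.30 at 4 h after 18 mg/kg, against 10.06, 5.22 and 4.97 after 3 mg/kg. At 48 h it was 5.30, 10.57 and 10.99 after 18 mg/kg, against 7.69, 5.53 and 5.13 after 3 mg/kg. The part of hepatocyte transcripts in the result was not tested. With the gap as a covariate no proteasome gene was called at 4 or 48 h, as 0.00% of all probe sets were. The differences were then -0.36 for Psmb7, -0.26 for Psmd6, -0.38 for Psmb3, -0.46 for Psmg3 and -0.42 for Psmd8. Leaving out any 1 of the 6 arrays also left no gene called at 4 h, as 0.00% of all probe sets were. At 48 h it likewise left none, when 0.00% to 1.49% of all probe sets were called, with 1 exception. Without the second array of 18 mg/kg 13 genes were called, when 14.9% of all probe sets were. That array had the lowest gap of its group, 2.95.

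Psmb7 divided by the gap over both doses and all times. On the 10 cortex arrays with a gap over 3, which include 0 h arrays of both doses, Psmb7 lay between 10.30 and 10.62, and on the other 14 between 11.17 and 11.76. Psmb2, Psmd11 and Psmc3ip were likewise lower on all 10, as 2.83% of all probe sets were, and Psmd1 was higher on all 10, as 2.84% were. Psmd1 lay between 9.58 and 10.05 on the 10 arrays and between 9.12 and 9.41 on the others. Psmd6, Psmb3, Psmg3 and Psmd8 overlapped. The part of integrity in the dose difference was not tested beyond these values.

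**Figure D5:**
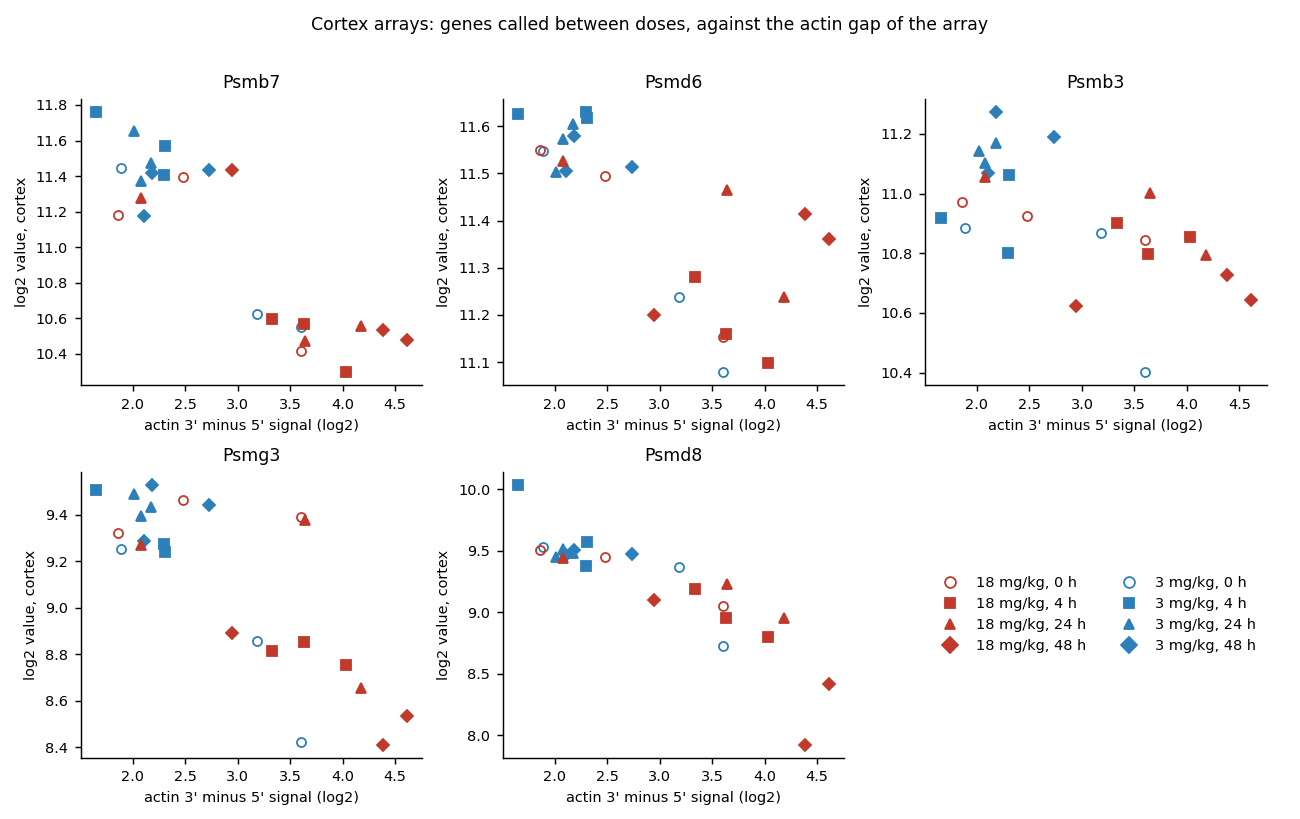
Log2 value in each of the 24 cortex arrays of the 5 genes called between doses, against the actin gap of the array (log2, 3' minus 5' signal), in red for 18 mg/kg and blue for 3 mg/kg, with a symbol for each time. Arrays of 18 mg/kg at 4 and 48 h lie to the right, and Psmb7 falls into a group at or below 10.62 with a gap over 3 and a group at or above 11.17.

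In liver no proteasome gene was called between the doses at 0, 4, 24 or 48 h, when 0.00%, 0.00%, 0.0870% and 0.0290% of all probe sets were. Counts at an unadjusted p under 0.05 were 16, 12, 1 and 0, against 21.4%, 9.79%, 3.01% and 2.52%. At 0 h 40 of 45 genes were higher in the 18 mg/kg arm, against 40.2% of all probe sets, with a median of 0.55, and 0.34 without the compressed array of 3 mg/kg. At 4 h the median was -0.67, against 0.08 over all probe sets. Without the compressed arrays it was 0.09, against -0.02, and the unadjusted count of 12 fell to 4. At 24 and 48 h the medians were 0.00 and -0.16. The tests of whether the time courses differed called none of the 45 genes and 0.00322%, 0.00966%, 0.293% and 0.129% of all probe sets, between doses in cortex (lowest adjusted p = 0.15, Psmg3), between doses in liver (0.48, Psmf1), and between liver and cortex after 3 mg/kg (0.098, Psmf1) and after 18 mg/kg (0.74). At an unadjusted p under 0.05 these moderated F tests gave 16, 3, 8 and 2 genes, against 16.7%, 9.54%, 16% and 6.64% of all probe sets.

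Genes that work with the proteasome were followed beside it, and 21 of 29 on a list of cofactors and ubiquitin genes were measured; the list shares 1 gene with the interferon list. In liver at 48 h after 3 mg/kg 2 were higher and 1 lower. Zfand5, a ubiquitin-binding protein that activates the proteasome, was 1.88 ± 0.45 higher (adjusted p = 0.026), and 1.10 higher without the compressed arrays (adjusted p = 0.031). Uba6, which activates ubiquitin, was 0.91 ± 0.25 higher (adjusted p = 0.033), and 0.68 higher without the compressed arrays (adjusted p = 0.082). Adrm1, a ubiquitin receptor of the cap, was lower by 0.76 ± 0.19 (adjusted p = 0.027). None of the list was called in the other 11 time contrasts or between doses in either tissue, and none of the interferon list was called in any of these. Between tissues 7 of the 21 were called higher and 8 lower in liver, when 54.5% of all probe sets were called higher and 34.5% lower. Among them were both transcription factors tied to proteasome genes, Nfe2l2, 2.68 ± 0.11 higher in liver, and Nfe2l1, lower by 1.78 ± 0.10.

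A further 6 probe sets carried a member's symbol together with others and are counted as no gene here. They pair Psma3 with Psma3l, Psmb6 with Psmb6l1, and, on 4 of them, Psme3 with Aoc3 and G6pc1. The means of these 4 differed widely, between 7.66 and 11.79 in liver and between 4.78 and 9.90 in cortex, so that Psmb6 and Psme3 have no value of their own here.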

How the data were processed

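The deposited table holds log2 values per probe set and array. RMA and Partek were used to make them, per the submitters' processing notes, which give no version. RMA brings arrays to a like distribution and summarises probes, but the deposited arrays differed in spread. Each had a mean of 6.74, while the SD ran from 1.39 to 2.17. With a common mean, a shift shared by most transcripts would be reduced in the deposited log2 values. They were used without further scaling or filter. Of the probe sets, 57 controls were left out and 31042 were tested. Symbols came from the platform annotation, and all 45 were found in RefSeq.

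Fits used limma 3.58.1 under R 4.3.3. Each tissue had a model of its own with 8 group means, and tests were two-sided with moderated variances. There were 12 contrasts against 0 h, 8 between doses and 4 moderated F tests over 3 contrasts each. Liver and cortex were compared in 1 fit of all 48 arrays, as the mean over 8 groups each. Benjamini-Hochberg adjustment ran over all probe sets of a contrast. Log2 changes carry the model's SE and group means their SD. Code was tested on simulated data first.

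The members and gene lists were chosen with earlier results of these data known. Every array's values are given for up to 6 called members per comparison, for the member with the widest change in a time contrast and for some members fixed by role; others are summarised. No 2 arrays held identical values. Alternatives were other scalings, probe set choices, covariates, weights and left-out arrays.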

Additional observations from a re-analysis of the deposited data

How the results depend on the processing

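Each count of called members was recomputed under the alternatives. Of 545 recomputed counts, 480 were within 1.5 times the reported one, counting a 0 that stayed 0. No change turned sign in the called genes followed singly or in the widest change of each time contrast. Medians over the 45 genes turned in places, as in liver at 4 h between doses, from -0.67 to 0.09 without the compressed arrays. The cause of the moves below was not tested. With array weights, whose fits stopped before they converged, counts against 0 h were 10, 17 and 17 in cortex after 3 mg/kg (4, 24, 48 h), 22 and 16 in cortex after 18 mg/kg (4, 48 h) and 24, 26 and 26 in liver after 3 mg/kg, when 15.9%, 12.3%, 18.7%, 26.2%, 19.6%, 32.2%, 34.7% and 42.7% of all probe sets were called. Between doses they were 13, 16 and 15 in cortex at 0, 4 and 48 h, and 29 and 1 in liver at 0 and 4 h, against 15.2%, 27.7%, 18.1%, 38.4% and 2.77%. In the tests of time courses they were 22 in cortex and 23 in liver between doses, and 21 after 3 mg/kg and 1 after 18 mg/kg between tissues, against 34.7%, 30.2%, 44.0% and 3.52%. With the actin gap as a covariate, counts were 6, 34 and 32 in liver at 4, 24 and 48 h after 3 mg/kg, 30 in liver at 0 h between doses and 25 between tissues after 3 mg/kg, against 5.71%, 31.5%, 46.5%, 27.9% and 21.9%. In cortex between doses they were 0 at 4 and at 48 h, as 0.00% of all probe sets were called. The fits with the gap and with weights were also run without the 2 compressed arrays, a choice made after seeing the data. Each then left 0 at 48 h in liver, as 0.00% of all probe sets were called. Weights gave 7 between tissues after 3 mg/kg, against 10.9%. Pooling both 0 h groups left 0 at 48 h in liver, as 0.00% of all probe sets were called. In cortex at 4 h between doses, quantile normalization gave 1, 1 probe set per gene gave 0 and any probe set of a gene gave 5. At 48 h only brighter probe sets and 1 probe set per gene each gave 5.

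Leaving out 1 array at a time gave, for cortex, 0 to 3 at 48 h after 18 mg/kg, 0 at 4 h, 0 to 4 at 24 h and 0 to 13 at 48 h between doses, and 0 to 3 in the test of time courses. For liver it gave 0 to 4, 0 to 10 and 0 to 15 at 4, 24 and 48 h after 3 mg/kg, 0 to 9 at 0 h between doses, 0 to 1 in the test of time courses and 0 to 7 between tissues after 3 mg/kg. The calls in liver went up most without the third 0 h array of 3 mg/kg (4, 10 and 15, against 5.83%, 12.2% and 25.0% of all probe sets).

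Same-numbered arrays of 2 groups did not deviate together: in 1 of 20 comparisons every correlation of their deviations was above 0.1, and the correlations ran from -0.71 to 0.48. With the replicate number as a block the counts in cortex between doses at 4 and 48 h were 0, as 0.00% of all probe sets were called, with the differences unchanged and adjusted p between 0.066 and 0.071 for the 5 genes. Those of liver at 48 h after 3 mg/kg (6) and between tissues (32) were the same, and no other count of members moved.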
